A study of Onthophagus taurus with 96 samples.

Results

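Head horns and thoracic horns were compared with each other in bull-headed dung beetles (Onthophagus taurus) in which the sex determination gene doublesex (dsx) had been knocked down by RNA interference. The comparison took 24 of the 96 libraries in the series, which are all the libraries labelled dsxRNAi together with head horns (12) or thoracic horns (12), and sex entered as a covariate. Each of the 4 groups held 6 libraries, female head horns, male head horns, female thoracic horns and male thoracic horns. All these animals were Onthophagus taurus bred from field-collected beetles, and as final instar larvae all had received 0.5 µg of double-stranded RNA against a region common to the male and female dsx isoforms, in 3 µl of buffer. The 24 horn libraries of controls, used beside them, came from larvae injected with 1 µg of double-stranded RNA from a plasmid vector sequence, so that the control dose was higher than the dsx dose. Because the double-stranded RNA was injected into the body cavity, the knockdown was not limited to the horns, and it left dsx transcripts in every library. Pupae were dissected within the first day after pupation. The head sample was the posterodorsal head epithelium, where head horns form, and the thoracic sample was the dorsal part of the first thoracic segment, so each sample also held epithelium around the horn. By the study's methods, 6 pupae of each sex and treatment were dissected for all tissues, but the labels do not say which head and thoracic libraries came from the same pupa, and the main tests did not pair them.

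Insects and other arthropods lay down the identity of their body regions with transcription factors that stay on into late development. Hox genes such as Antennapedia mark trunk segments, whereas the anterior head, which lies in front of the Hox domain, carries factors such as Pax6, Six3 and sloppy paired. Dachshund, homothorax and Distal-less divide appendages along their length, apterous, Drop and pannier pattern the wing and the dorsal body wall, and Wnt and Hedgehog signals set boundaries within segments. Beetle horns grow from epidermis of the head and of the first thoracic segment, neither of which bears wings, and both kinds of horn use part of the appendage patterning genes.

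The level of dsx itself came first, because it checks the labels. It is given in CPM, the reads of a gene scaled to a common library size, after adjustment by the trimmed mean of M values (TMM) method over the 24 libraries. The lowest, median and highest level were 5.48, 14.8 and 35.9 CPM in the 6 female head horns and 7.08, 8.41 and 9.06 CPM in the 6 male head horns. In thoracic horns they were 4.69, 8.24 and 16 CPM in females and 1.56, 5.12 and 14.5 CPM in males. The female head horns were spread most widely, with 3 libraries above every other library of the comparison, and the tissues overlapped in both sexes. Mean dsx was 12.8 ± 9.49 CPM in head horns and 7.81 ± 4.27 CPM in thoracic horns (SD, n = 12 each), a difference of 5.03 CPM that did not pass a two-sided permutation test (p = 0.112). Within females (p = 0.156) and within males (p = 0.323), a two-sided exact permutation test of 6 against 6 libraries did not pass either. On a common scale over the 48 horn libraries, dsx in control head horns had a lowest, median and highest level of 14.5, 38.2 and 55.7 CPM in females and 23.1, 29.3 and 61.4 CPM in males. In control thoracic horns the values were 15.1, 25.2 and 31.8 CPM in females and 25.3, 27.6 and 33.6 CPM in males. The median of every control group was therefore above that of its knockdown group, and in both male tissues the groups did not overlap. In females the head horn libraries of the 2 treatments overlapped, and so did the thoracic horn libraries.

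Library totals ran from 6193048 to 19008005 reads, with a median of 9339909.5 in head horns and 8427588 in thoracic horns. In these 24 libraries, 9691 of 17483 gene models passed the filter on low counts. Of the 24 libraries, 6 stood apart, 1 female and 2 male libraries in each tissue (S29, S34 and S35 of thoracic horns and S53, S58 and S59 of head horns). Their TMM factors were 0.502 to 0.739, against 0.825 to 1.56 in the other 18, and their 10 highest genes took 35.3% to 42.2% of the reads, against 18.8% to 36.5%. They formed 1 end of the first principal component, which held 37.1% of the variance and on which 1.85% of the variation lay between the tissues. The cuticle protein genes cpr92a, cpr100a and cpr97eb and the chitinase gene cht7 were among the genes that loaded most strongly on that end. The second component held 17.5% of the variance, and 47.9% of its variation lay between head and thoracic horns. The summed tracheal marker genes ran from 11970 to 22060 CPM in these 6 libraries and from 3035 to 17960 CPM in the others. The neuron and glia markers ran from 3272 to 4789 CPM against 918.7 to 2708 CPM, so they did not overlap. Since each tissue held the same number of such libraries, they are kept, and results are given without them where a call depends on them.

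**Figure D1:**
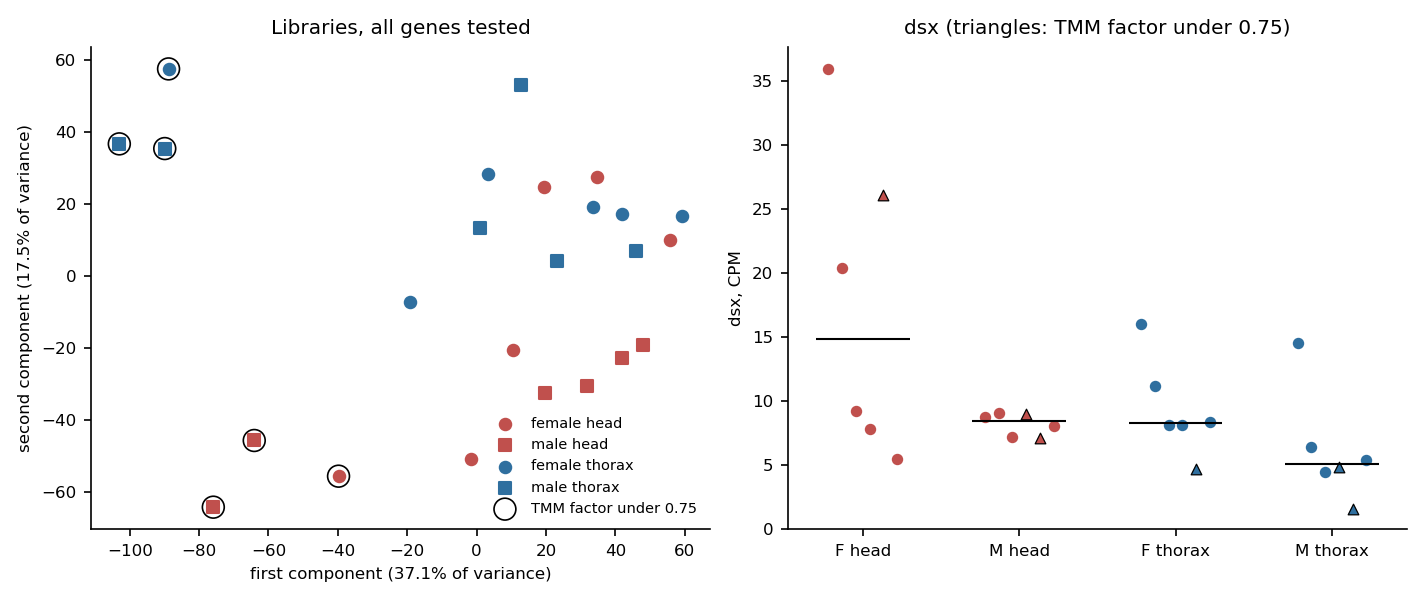
The left panel places the 24 dsxRNAi horn libraries on the first (37.1% of variance) and second (17.5%) principal components of log2 CPM, with head horns in red, thoracic horns in blue, circles for females, squares for males and rings around the 6 libraries with TMM factors under 0.75. The right panel plots dsx in CPM for each library with a line at the group median, and shows that the 3 highest libraries were female head horns, up to 35.9 CPM.

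After dsxRNAi, 466 of 9691 genes (4.81%) differed in expression between head and thoracic horns at an adjusted p under 0.05 (edgeR, quasi-likelihood F-test, p-values adjusted by the Benjamini-Hochberg method). Expression was higher in head horns for 262 genes (2.7%) and higher in thoracic horns for 204 (2.11%). In 66 of these genes (0.681% of those tested) the 12 head horn libraries and the 12 thoracic horn libraries did not overlap at all, 52 with higher expression in head horns and 14 with higher expression in thoracic horns. Named genes with large differences included gsb, Pax6, Six3, slp2 and dac in the first set and cpr67b and Antp in the second, and both sets also held gene models with no name from another species. The median log2 fold change over all genes tested was -0.012, so that fold changes are read against a centre close to 0. Leaving out the 6 libraries that stood apart gave 601 genes, 358 of them among the 466. Head and thoracic horn libraries whose numbers lie 24 apart resembled each other, which the labels do not explain. A fit that treated them as pairs, chosen after the data were seen, called 1588 genes (799 and 789), 452 of them among the 466.

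**Figure D2:**
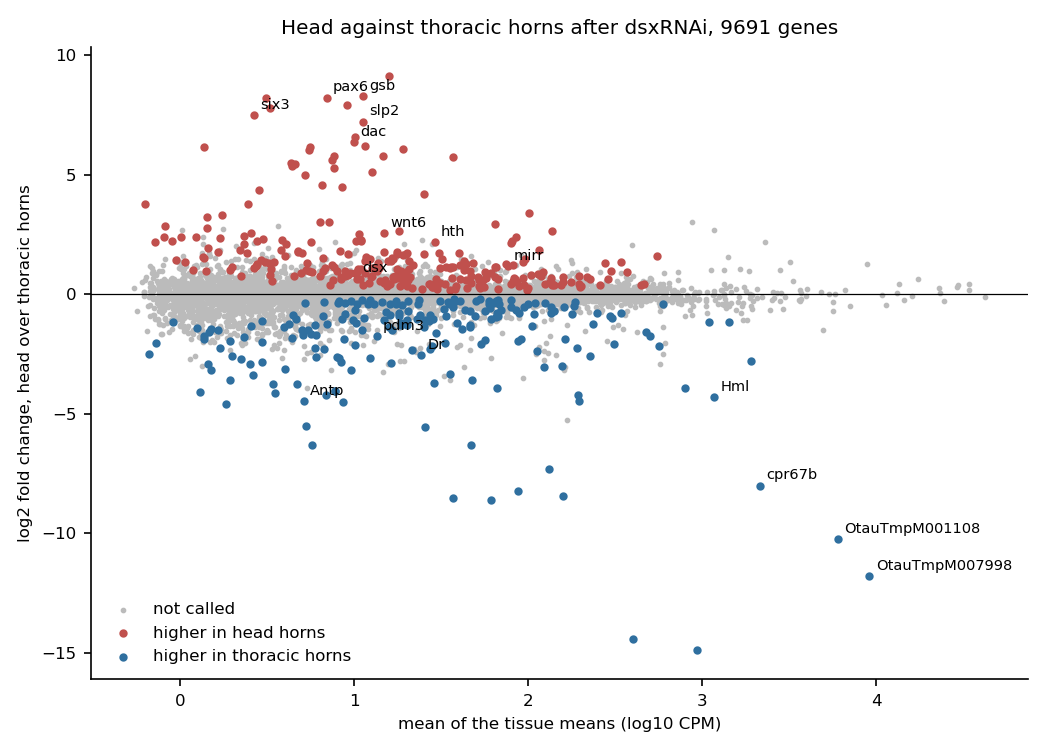
Each of the 9691 genes tested is a point, with the mean of the tissue means in CPM on a log10 axis and the log2 fold change of head over thoracic horns (positive is higher in head horns). Called genes are red (262, higher in head horns) and blue (204, higher in thoracic horns), the rest grey, and dsx lies among the genes that were not called.

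Head horns expressed a set of head transcription factor genes that thoracic horns nearly lacked. Pax6 (named for the human gene, OTAU003687, scaffold 7, 809238 to 841434, plus strand), the factor known above all for eye and anterior brain development, had a lowest, median and highest level of 7.35, 13.5 and 22.8 CPM in head horns and of 0, 0 and 0.154 CPM in thoracic horns. No head horn library came near any thoracic horn library, and the thoracic horns held 4 reads in all (log2 fold change 8.22 ± 0.423 SE, adjusted p = 2.07e-12). Six3 (named for the human gene, OTAU006142, scaffold 23, 375372 to 376064, minus strand), a factor of the most anterior head and forebrain, had 1.84, 5.57 and 10.9 CPM in head horns and 2 reads in all 12 thoracic horn libraries. The ratio of the summed reads was 263 (95% exact interval 72.6 to 2180), an interval that covers counting error only. Sloppy paired 2 (slp2, OTAU009689), a forkhead factor of head and segment patterning, had 10.2, 20.9 and 38.4 CPM in head horns and 0, 0 and 1.85 CPM in thoracic horns (log2 fold change 7.22 ± 0.618 SE, adjusted p = 1.76e-08). Dachshund (dac, OTAU004591), a nuclear factor used in the eye, the mushroom body and the middle of appendages, had 5.80, 16.2 and 42.2 CPM against 0, 0.186 and 0.593 CPM (log2 fold change 6.36 ± 0.461 SE, adjusted p = 9.67e-10). All 4 genes separated the tissues completely.

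Gooseberry (gsb, OTAU017115, scaffold 1577, 351 to 3217, plus strand), a paired-box segment polarity factor, had a lowest, median and highest level of 11.9, 19.6 and 36.3 CPM in head horns and of 0, 0 and 0.238 CPM in thoracic horns (log2 fold change 8.27 ± 0.412 SE, adjusted p = 1.49e-12). It thus showed the same all-or-none pattern, as did the gene model OtauTmpA003689, which carries no name from another species and lies on scaffold 7 with Pax6. That model had 17.3, 29.01 and 47.98 CPM in head horns and 0, 0 and 0.154 CPM in thoracic horns, the largest difference among the separated genes that were higher in head horns (log2 fold change 9.14 ± 0.366 SE, adjusted p = 3.67e-14). A T-box gene named for human TBX20 (OTAU008514) had 3.61, 8.81 and 18.5 CPM against 0, 0.0884 and 2.40 CPM (log2 fold change 5.00 ± 0.612 SE, adjusted p = 6.69e-06). Zinc finger gene znf423 was also fully separated, with medians of 8.66 CPM in head horns and 1.27 CPM in thoracic horns (log2 fold change 3.04 ± 0.378 SE, adjusted p = 8.5e-06). The models named cg6225, cg10019 and cg11796, for which no role is given here, had log2 fold changes of 5.75, 5.78 and 5.37 without overlap.

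The trunk side was marked by Antennapedia (Antp, OTAU008869, scaffold 28, 48245 to 68085, minus strand), the Hox gene of the thorax. It had 0.116, 0.413 and 1.00 CPM in head horns and 4.05, 10.2 and 16.5 CPM in thoracic horns, as lowest, median and highest. Every thoracic horn library lay above every head horn library (log2 fold change -4.47 ± 0.326 SE, adjusted p = 9.67e-10). Antp was the only Hox gene of the Drosophila-named list that passed the filter, and it did so only through thoracic horns. The list thus gave 0 genes higher in head horns and 1 of 1 higher in thoracic horns, beside 2.7% and 2.11% of all genes. All 4 models matched to this list are Hox genes of the trunk, and none of the head was matched, so nothing is read from the count. Ultrabithorax, abdominal-A and Abdominal-B were matched but too low to test, with 4, 0 and 29 reads in head horns and 20, 1 and 19 reads in thoracic horns. In the knockdown genitalia the authors' FPKM values (read counts scaled by gene length and library size) had medians of 9.71, 1.55 and 70.2 for these 3 genes in the same order. Of the Hox cofactors and trunk identity genes, 1 of 3 was higher in head horns and none was higher in thoracic horns, beside 2.7% and 2.11% of all genes. The 1 gene was hth, so the count adds nothing to it. Homothorax (hth, OTAU003890), the homeodomain partner of Hox proteins, had 29.3, 41.5 and 79.8 CPM in head horns and 2.94, 9.71 and 23.4 CPM in thoracic horns without overlap (log2 fold change 2.18 ± 0.269 SE, adjusted p = 6.97e-06). Its own partner extradenticle (exd), whose product needs Homothorax to enter the nucleus, had medians of 269 and 257 CPM (log2 fold change 0.07 ± 0.110 SE, adjusted p = 0.798). The trunk gene tiptop (tio) had medians of 61.04 CPM in head horns and 97.7 CPM in thoracic horns, and the difference was not called (log2 fold change -0.53 ± 0.195 SE, adjusted p = 0.145). Without the 6 libraries that stood apart, tio was called as higher in thoracic horns (log2 fold change -0.82).

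**Figure D3:**
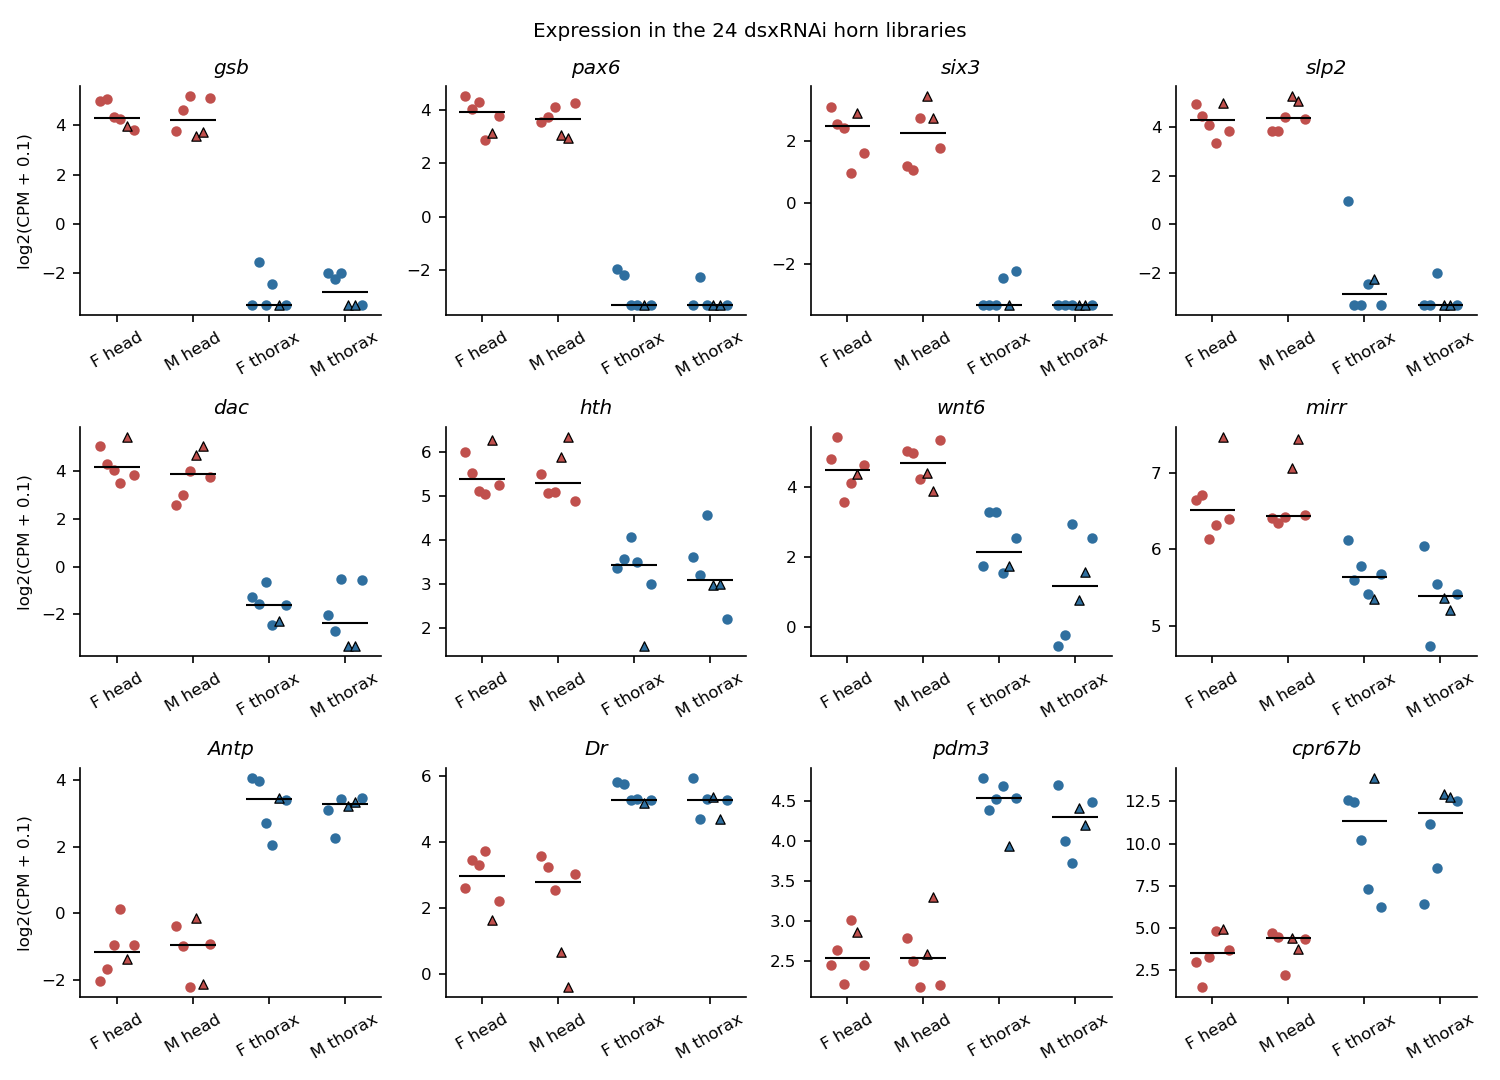
The level of 12 named genes in each of the 24 dsxRNAi horn libraries, as log2(CPM + 0.1), with head horns in red, thoracic horns in blue, a line at the group median and triangles for the 6 libraries with TMM factors under 0.75. The first 8 panels are genes that were higher in head horns and the last 4 genes that were higher in thoracic horns, and in every panel the tissues are separate in both sexes.

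The levels of these genes in the other tissues of knockdown animals were read from the authors' FPKM values, as a description. They fell into different patterns. Pax6 had a median of 12.3 FPKM in head horns, 13.1 in brains and 0 in genitalia. Six3 had 5.86, 14.6 and 0 FPKM in the same order, and slp2 18.6, 21.4 and 1.51 FPKM. These factors were thus measured in head horns and in brains. Gooseberry was instead at 25.2 FPKM in head horns, 0 in brains and 22.7 in genitalia, and TBX20 at 12.6, 0.191 and 7.52 FPKM, so that these were measured in head horns and in the posterior abdominal epidermis. Dachshund was high in all these tissues and low in thoracic horns (0.220 FPKM), at 19.4, 36.4 and 5.30 FPKM. Of the 52 separated genes that were higher in head horns, the brain median exceeded the highest thoracic horn library in 29 and the genitalia median did so in 29, while 10 did so in neither tissue. Of the 14 that were higher in thoracic horns, the brain median exceeded the highest head horn library in 4 and the genitalia median in 8, with 3 in neither. These genes were chosen for being lower in 1 horn, which makes it easier for another tissue to exceed that horn. The share over all genes was not computed, so nothing is read from these counts. The neuronal genes bruchpilot (brp) and Synaptotagmin 1 (Syt1), of the active zone and the synaptic vesicle, had medians of 105 and 115 FPKM in brains, 1.54 and 0.740 FPKM in head horns, and 1.49 and 0.620 FPKM in thoracic horns. The difference between the horns passed the test for neither gene (adjusted p = 0.854 for brp and 0.985 for Syt1).

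Among 7 tested head patterning genes, 4 were higher in head horns and none was higher in thoracic horns, beside 2.7% and 2.11% of all genes, and the median log2 fold change was 1.16. Beside dac and slp2 these were the Iroquois genes mirror and araucan, homeobox genes that divide dorsal from ventral territory in the eye and mark the dorsal head and body wall. In thoracic horns slp2 and dac had at most 12 and 6 reads in any library, so they passed the filter only through head horns. That fixed their side in advance, and nothing is read from the count of 4. Mirror (mirr) had 70.1, 86.5 and 177 CPM in head horns and 26.5, 44.7 and 69.6 CPM in thoracic horns, as lowest, median and highest, without overlap (log2 fold change 1.16 ± 0.172 SE, adjusted p = 8.05e-05). Araucan (ara) had 13.9, 22.4 and 38.4 CPM against 3.05, 9.01 and 16.4 CPM, and the tissues overlapped (log2 fold change 1.36 ± 0.197 SE, adjusted p = 6.1e-05). The other 3 members were not called. Sine oculis (so) had medians of 4.32 and 2.15 CPM (adjusted p = 0.724), cap-n-collar (cnc) 69.9 and 78.8 CPM (adjusted p = 0.234), and tailup (tup) 1.86 and 3.76 CPM (adjusted p = 0.104), each with head horns first.

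Of 13 tested appendage patterning genes, 3 were higher in head horns and 4 were higher in thoracic horns, beside 2.7% and 2.11% of all genes, with a median log2 fold change of 0.068. The 3 were dac, hth and spineless (ss), the antennal selector, whose call was narrow (medians 25.8 and 14.8 CPM, log2 fold change 0.60 ± 0.175 SE, adjusted p = 0.0491). The spineless call was lost in 20 of 32 alternatives, 17 of which left out a single library (adjusted p up to 0.213). The 4 genes that were higher in thoracic horns were C15, salm, ab and ap. C15, a homeobox gene of the distal leg, was close to the detection limit, with medians of 0.124 CPM in head horns and 1.79 CPM in thoracic horns (log2 fold change -4.08 ± 0.567 SE, adjusted p = 3.67e-05). C15 passed the filter only through thoracic horns and dac only through head horns, so nothing is read from the counts of this list. Spalt major (salm), a zinc finger factor of wing and antenna, had 1.505, 6.80 and 25.2 CPM in head horns and 9.05, 45.97 and 98.8 CPM in thoracic horns (log2 fold change -2.17 ± 0.416 SE, adjusted p = 0.00187). Abrupt (ab), a BTB zinc finger factor, had 14.4, 36.2 and 83.3 CPM and 61.2, 148 and 214 CPM (log2 fold change -1.87 ± 0.271 SE, adjusted p = 6.64e-05). In both the highest head horn libraries reached into the range of the thoracic horns.

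Apterous (ap, OTAU013179), the LIM homeodomain selector of the dorsal wing, had 1.39, 2.36 and 4.85 CPM in head horns and 5.36, 6.76 and 10.4 CPM in thoracic horns without overlap (log2 fold change -1.50 ± 0.167 SE, adjusted p = 1.7e-06). Distal-less (Dll), the gene of distal limb outgrowth, was near the filter in both tissues, at 0.249, 1.47 and 2.01 CPM in head horns and 0, 0.783 and 2.40 CPM in thoracic horns, and no difference was detectable at this depth (log2 fold change 0.44 ± 0.408 SE, adjusted p = 0.614). Sister of odd and bowl (sob) had 6.70, 15.5 and 22.7 CPM and 0.162, 1.20 and 21.3 CPM, with a wide thoracic spread, and was not called by the main test (log2 fold change 1.72 ± 0.619 SE, adjusted p = 0.131). Rotund (rn) and both gene models named cryptocephal (crc) had log2 fold changes of -0.11, 0.09 and -0.48 and were not called.

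In the wing and body wall list, 2 of 12 tested genes were higher in head horns (mirr and ara) and 2 were higher in thoracic horns (ap and pnr), beside the same shares of all genes, with a median log2 fold change of 0.0026. Pannier (pnr, OTAU010283), the GATA factor of the dorsal midline, had 5.63, 10.8 and 36.97 CPM in head horns and 18.7, 38.6 and 108 CPM in thoracic horns, and the tissues overlapped (log2 fold change -1.62 ± 0.362 SE, adjusted p = 0.00793). The uncalled members had log2 fold changes of -0.30 (u-shaped), 0.02 (stripe), -0.48 (engrailed), -0.01 (fringe), 0.19 (knirps-like), 0.24 (blistered) and 0.52 (cut), beside tup. Drop (Dr, OTAU002127), a muscle segment homeobox gene of the dorsal epidermis outside these lists, had 0.655, 7.09 and 13.1 CPM in head horns and 25.9, 39.2 and 61.2 CPM in thoracic horns (log2 fold change -2.55 ± 0.322 SE, adjusted p = 1.01e-05). Its neighbour on scaffold 69, OtauTmpM002128, had medians of 1.47 and 18.96 CPM (log2 fold change -3.19 ± 0.459 SE, adjusted p = 5.94e-05). The POU factor pdm3 (OTAU002102) had 4.40, 5.70 and 9.70 CPM against 13.1, 21.6 and 27.3 CPM (log2 fold change -1.77 ± 0.143 SE, adjusted p = 5.42e-09), and the zinc finger gene elbow (elB) had medians of 55.9 and 87.2 CPM (log2 fold change -0.67 ± 0.113 SE, adjusted p = 0.000422). All of Dr, its neighbour, pdm3 and elB separated the tissues.

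The Wnt ligand genes WNT6 and wg were higher in head horns. Of 13 tested genes of the Wnt list, 3 were higher in head horns and 1 was higher in thoracic horns, beside 2.7% and 2.11% of all genes (median log2 fold change 0.14), and the gene named for human WNT6, which the list did not hold, was separated as well. WNT6 (OTAU002719, scaffold 3, 1604170 to 1611470, minus strand) had 11.9, 22.9 and 42.9 CPM in head horns and 0.584, 3.25 and 9.64 CPM in thoracic horns (log2 fold change 2.56 ± 0.373 SE, adjusted p = 6.65e-05). Wingless (wg, OTAU002716, scaffold 3, 1559934 to 1560497, plus strand), a Wnt ligand that lies on the same scaffold, had 1.85, 6.50 and 11.7 CPM and 0, 1.43 and 3.62 CPM with some overlap (log2 fold change 2.28 ± 0.481 SE, adjusted p = 0.00472). Notum, the secreted hydrolase that inactivates Wnt proteins, had medians of 4.52 and 0.973 CPM (log2 fold change 2.29 ± 0.329 SE, adjusted p = 5.78e-05). Wntless (wls), which carries Wnt proteins to the cell surface, had medians of 141 and 110 CPM, a small change (log2 fold change 0.43 ± 0.103 SE, adjusted p = 0.0148). Dally-like (dlp, OTAU002583), a glypican that binds Wnt and Hedgehog proteins at the cell surface, went the other way. It had 90.98, 111 and 158 CPM in head horns and 320, 493 and 787 CPM in thoracic horns without overlap (log2 fold change -2.10 ± 0.148 SE, adjusted p = 5.96e-10). A second gene model with the name dlp (OTAU000930) had medians of 6.42 and 6.74 CPM (log2 fold change -0.03 ± 0.132 SE, adjusted p = 0.934).

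Of 9 tested Hedgehog pathway genes, 2 were higher in head horns and none was higher in thoracic horns, beside 2.7% and 2.11% of all genes (median log2 fold change 0.11). Cubitus interruptus (ci), the transcription factor at the end of the pathway, had 110, 162 and 212 CPM in head horns and 36.7, 81.9 and 125 CPM in thoracic horns (log2 fold change 0.91 ± 0.174 SE, adjusted p = 0.00174). Patched (ptc), the Hedgehog receptor and itself a target of the pathway, had medians of 18.7 and 7.62 CPM (log2 fold change 1.10 ± 0.310 SE, adjusted p = 0.0397). The ptc call was lost in 18 of 32 alternatives, 16 of which left out a single library (adjusted p up to 0.148). The segment polarity and embryonic segmentation list, which holds gsb, slp2, wg and ptc, had 4 of 6 tested genes higher in head horns and none higher in thoracic horns (median log2 fold change 1.69). Gsb and slp2 passed the filter only through head horns, so nothing is read from this count.

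The growth pathway lists are read against 2.7% of all genes called higher in head horns and 2.11% called higher in thoracic horns. In the EGFR and FGF list, 2 of 18 genes were higher in head horns (median log2 fold change 0.21), rolled (rl), the ERK kinase, and Keren (krn), a ligand of the EGF receptor. Rolled had 76.7, 101 and 197 CPM in head horns and 40.5, 48.8 and 60.3 CPM in thoracic horns without overlap (log2 fold change 1.21 ± 0.143 SE, adjusted p = 3.83e-06), and krn had medians of 21 and 11.2 CPM (log2 fold change 0.70 ± 0.158 SE, adjusted p = 0.00842). In the insulin and TOR list, 1 of 13 genes was higher in head horns and 1 was higher in thoracic horns (median log2 fold change 0.12). FoxO (foxo), the transcription factor that insulin signalling restrains, had 52.8, 86.2 and 132 CPM in head horns and 13.1, 40.7 and 75.2 CPM in thoracic horns (log2 fold change 1.13 ± 0.224 SE, adjusted p = 0.0026). Thor, the 4E-BP brake on translation and a FoxO target in Drosophila, had medians of 14.6 and 32.1 CPM and so differed in the opposite direction (log2 fold change -1.07 ± 0.286 SE, adjusted p = 0.029). The Thor call was lost without the 6 libraries that stood apart and when library S26, S29, S34, S49, S55 or S59 was left out alone (adjusted p up to 0.25). In the Fat and Hippo list 1 of 15 genes was called, four-jointed (fj), a Golgi kinase that acts on Fat and Dachsous, with medians of 48.96 and 21.1 CPM (log2 fold change 1.20 ± 0.321 SE, adjusted p = 0.0288). The fj call was lost when library S32, S36, S49, S53, S58 or S59 was left out alone (adjusted p up to 0.0651).

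No gene was called among 17 of the Notch pathway, 12 of the Dpp and activin pathway, 29 of the cell cycle and DNA replication, 10 of programmed cell death, 4 of the juvenile hormone pathway, 8 of sex determination and 4 of the circadian clock. Of all genes 4.81% were called, and with lists of these sizes nothing particular to them is read from the absence of calls. Their median log2 fold changes were 0.12, 0.14, -0.17, -0.014, -0.081, 0.19 and 0.12 in that order, beside -0.012 over all genes. Of these 7 lists the Notch pathway genes lay closest together, between -0.31 and 0.25, and the cell cycle genes between -0.53 and 0.15. In the ecdysone list 1 of 27 genes was higher in head horns, a share near the 2.7% of all genes (median 0.0004). This was Hr38, a nuclear receptor of the ecdysone response, with medians of 22.8 and 11.2 CPM (log2 fold change 1.23 ± 0.336 SE, adjusted p = 0.0323), and its call was lost without the 6 libraries that stood apart and when library S26, S29, S32, S33, S34, S36, S53, S58 or S59 was left out alone (adjusted p up to 0.0654). Among sex determination genes, dsx is described above, and dsx-c73A, a separate gene not on that list, had medians of 214 and 20.2 CPM with wide overlap (log2 fold change 2.63 ± 0.708 SE, adjusted p = 0.03, up to 0.0678 and no longer called when library S26, S30, S32, S36 or S52 was left out alone).

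**Figure D4:**
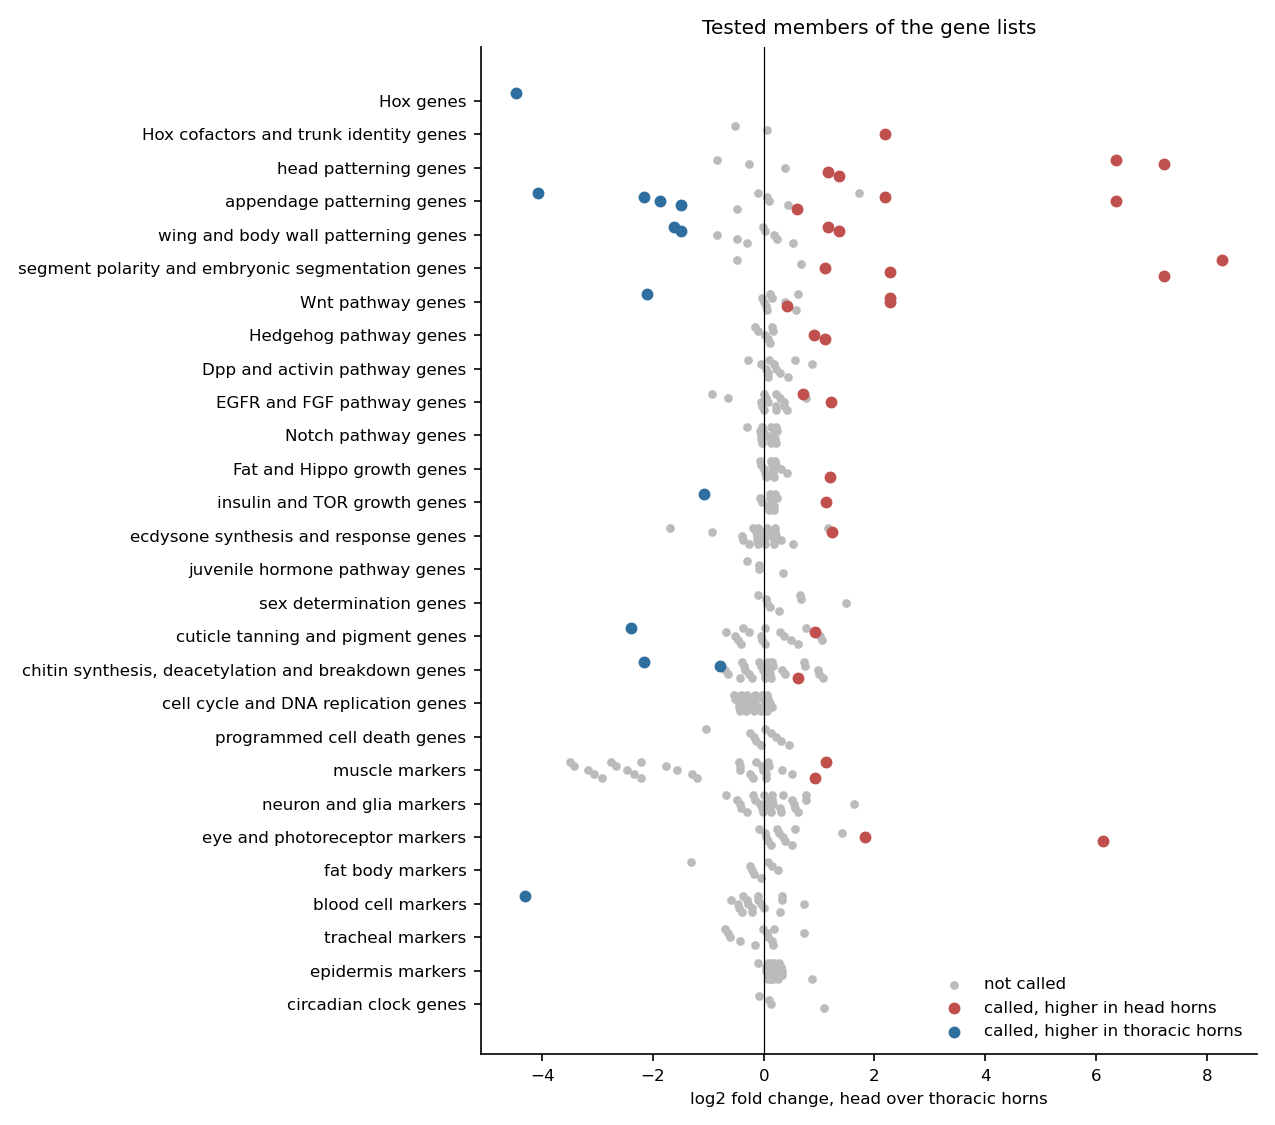
Each point is a tested member of the gene list named at the left, placed by its log2 fold change of head over thoracic horns, with called genes in red (higher in head horns) or blue (higher in thoracic horns) and others in grey. The head patterning, segment polarity and Hedgehog lists have called genes on the head side only, the appendage and wing lists have called genes on both sides, and the Notch and cell cycle lists have none.

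Several genes were expressed strongly in thoracic horns and hardly at all in head horns. The cuticle protein gene cpr67b (OTAU002586, scaffold 3, 350220 to 351542, minus strand) had 2.74, 17.1 and 31.1 CPM in head horns and 76.1, 4014 and 14861 CPM in thoracic horns (log2 fold change -8.01 ± 0.914 SE, adjusted p = 2.31e-06). OtauTmpM001108 (scaffold 12), with no name from another species, had 1.11, 9.54 and 31.5 CPM against 66.4, 7521 and 45490 CPM (log2 fold change -10.26 ± 1.19 SE, adjusted p = 3.06e-06). Both separated the tissues although the thoracic levels spread over a wide range. OtauTmpM007998 (scaffold 940) had 0.501, 4.13 and 40.03 CPM in head horns and 1.17, 18119 and 56970 CPM in thoracic horns, where 1 or more libraries were as low as the head horns (log2 fold change -11.80 ± 1.45 SE, adjusted p = 6.97e-06). It drew 2059477 reads from the 12 thoracic horn libraries and 730 from the 12 head horn libraries. OtauTmpA001107, beside OtauTmpM001108 on scaffold 12, had 209382 reads in thoracic horns and 6 in head horns, and OtauTmpM014792 on scaffold 1550 had 85765 and 3 reads. The 3 thoracic horn libraries that stood apart (S29, S34 and S35) held 92.9% of the thoracic reads of OtauTmpA001107 and 90.7% of those of OtauTmpM014792, against 57.4% for cpr67b, 63.5% for OtauTmpM001108 and 51.3% for OtauTmpM007998. The ratio for OtauTmpM014792 was 32200 (95% exact interval 11000 to 156000), counting error only, and both models were at 0 CPM in at least 1 thoracic horn library. Most of the reads in this ratio thus came from those 3 libraries, whose part in the difference was not tested further. Without all 6 libraries that stood apart the log2 fold change was -12.70 for OtauTmpA001107 and -12.41 for OtauTmpM014792, against -14.91 and -14.42 with them. The neighbour of OtauTmpM014792, cpr56f, had 0, 0.169 and 4.72 CPM and 0, 6.07 and 3357 CPM (log2 fold change -8.45 ± 1.74 SE, adjusted p = 0.0039). Library S35 held 91.4% of the thoracic reads of cpr56f, and the log2 fold change was -5.77 without S35, -7.64 without S29 and -5.84 without the 6 libraries. The models OtauTmpA001107, OtauTmpM014792 and cpr56f were also among the genes that loaded on the end of the first component where these libraries lay. Of the genes named here, cpr67b, OtauTmpM001108 and OtauTmpM007998 had high medians in thoracic horns, whereas cpr56f was low in the median thoracic horn library. In the knockdown genitalia cpr67b had a median of 594 FPKM and OtauTmpM001108 36.1 FPKM, beside 3490 and 8490 FPKM in thoracic horns, and OtauTmpM007998 had 1.87 FPKM beside 9730 FPKM. Over all 13 tested genes that carry the name of a cuticle protein, a list made after values were seen, 2 were higher in thoracic horns (median log2 fold change -0.38). None was higher in head horns, and the shares of all genes were 2.11% and 2.7% in that order. The 2 were cpr67b and cpr56f, both described above, so the count adds nothing to them. Cuticle proteins form a large family, and reads from near-identical copies could be split between models.

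Enzymes of the cuticle are described as single genes, and nothing is read from the small counts of called members in their lists. Of 19 cuticle tanning and pigment genes, 1 was higher in head horns and 1 was higher in thoracic horns (median log2 fold change 0.022). Of all genes 2.7% were higher in head horns and 2.11% were higher in thoracic horns. Ebony (e), which joins dopamine to beta-alanine and gives pale cuticle, had 8.62, 26.2 and 135 CPM in head horns and 3.79, 184 and 449 CPM in thoracic horns (log2 fold change -2.40 ± 0.582 SE, adjusted p = 0.0148), but its call was lost without the 6 libraries that stood apart and in the fit with pairs. Yellow-f, a dopachrome conversion enzyme, had medians of 437 and 242 CPM (log2 fold change 0.92 ± 0.267 SE, adjusted p = 0.0486) and lost its call in 17 of 32 alternatives, 16 of which left out a single library (adjusted p up to 0.0958). In the chitin list, which also holds other proteins of the apical matrix, 1 of 30 genes was higher in head horns (neuromusculin, nrm, an adhesion protein). Another 2 of the 30 were higher in thoracic horns, beside the same shares of all genes (median log2 fold change 0.047). The hexosaminidase gene Hexo1, of chitin breakdown, had 167, 195 and 260 CPM in head horns and 227, 673 and 2320 CPM in thoracic horns (log2 fold change -2.17 ± 0.307 SE, adjusted p = 4.99e-05). Quasimodo (qsm), a zona pellucida domain protein, had medians of 226 and 464 CPM (log2 fold change -0.78 ± 0.165 SE, adjusted p = 0.00465). The nrm call (log2 fold change 0.63 ± 0.160 SE, adjusted p = 0.0218) was lost without the 6 libraries. Neprilysin 2 (Nep2), a membrane metallopeptidase, was separated, with 27.4, 58.3 and 127 CPM in head horns and 164, 323 and 659 CPM in thoracic horns (log2 fold change -2.59 ± 0.288 SE, adjusted p = 1.67e-06), and wing blister (wb), a laminin alpha chain of the basement membrane, was separated the other way, with 53.3, 137 and 210 CPM against 8.72, 24.7 and 52.2 CPM (log2 fold change 2.21 ± 0.277 SE, adjusted p = 8.57e-06).

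The labelled tissue was checked against markers of the cells a dissection could hold. Grainy head (grh) and E-cadherin (shg), the defining genes of epidermis, were high in both tissues, with medians of 312 and 645 CPM in head horns and 314 and 571 CPM in thoracic horns. The summed epidermis list ranged from 6060 to 6790 CPM in head horns and from 3400 to 6970 CPM in thoracic horns, and none of its 25 tested genes was called. Of all genes 4.81% were called, so nothing is read from an absence of calls in marker lists of these sizes. Summed levels depend on the number of cells and on the RNA in each cell, which cannot be told apart in these bulk samples. The neuron and glia list ranged from 1060 to 4220 CPM in head horns and from 919 to 4790 CPM in thoracic horns with 0 of 28 called, the tracheal list from 3030 to 21500 CPM in head horns and from 3840 to 22100 CPM in thoracic horns with 0 of 12 called, and the fat body list from 231 to 325 CPM in head horns and from 200 to 353 CPM in thoracic horns with 0 of 8 called. Elav, repo, ninaE, apolpp, Fbp1, NimC1 and btl, which were also set as defining genes, were not matched to any gene name.

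The muscle list ranged from 3550 to 11100 CPM in head horns and from 4570 to 12400 CPM in thoracic horns. Of its 31 tested genes 2 were called, both higher in head horns, beside 2.7% of all genes higher there and 4.81% called in either direction. These were jaguar (jar), an unconventional myosin that is not particular to muscle (log2 fold change 0.92 ± 0.186 SE, adjusted p = 0.00307), and tincar (tinc), a membrane protein (log2 fold change 1.12 ± 0.257 SE, adjusted p = 0.00919). The sarcomere genes lay on the other side without a call. Myosin heavy chain (Mhc) had 9.70, 30.95 and 303 CPM in head horns and 14.6, 64.1 and 802 CPM in thoracic horns (log2 fold change -1.77 ± 0.766 SE, adjusted p = 0.224). Troponin T (up), troponin I (wupA) and paramyosin (Prm) had log2 fold changes of -2.76, -2.66 and -2.22 (adjusted p = 0.201, 0.219 and 0.379), and their levels varied between libraries of 1 tissue by more than 10-fold. The list's median was -0.45. With DESeq2 in place of edgeR, 9 muscle genes were called higher in thoracic horns and 2 higher in head horns, among 376 and 407 genes in all. The muscle list therefore depended on the test. The part of muscle in the tissue difference was not tested.

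The eye and photoreceptor list ranged from 516 to 812 CPM in head horns and from 442 to 527 CPM in thoracic horns. Of its 14 tested genes 2 were higher in head horns and none was higher in thoracic horns, beside 2.7% and 2.11% of all genes. Of the 2, ninaC passed the filter only through head horns, so nothing is read from this count. Arrestin 1 (Arr1) had medians of 179 and 48.3 CPM (log2 fold change 1.83 ± 0.236 SE, adjusted p = 1.25e-05). Arr1 alone made up 351 of the 812 CPM of the list in head horn library S49 and 281 of 756.3 CPM in S50, the highest sums. The sum without Arr1 is not given here, so the range of the list is not read as a difference of its other genes. The myosin gene ninaC had 393 reads in head horns and 3 in thoracic horns, a ratio of 116 (95% exact interval 39.5 to 567), and its head horn libraries ran from 0 to 18.4 CPM. The female library S54 was the highest of them, and the next was at 4.68 CPM. Arrestin 2 had 150 reads in head horns, 107 of them in S54 and 23 in S51, and 0 in thoracic horns, and was too low to test. The gene trpl, also set as a defining gene of the eye, went the other way. It ran from 0 to 1.73 CPM in head horns and from 0.225 to 5.67 CPM in thoracic horns. The gene norpA was close to equal, with medians of 37.5 and 37.6 CPM. The share of eye tissue in the head samples was not tested.

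The blood cell list ranged from 2070 to 3340 CPM in head horns and from 2410 to 10300 CPM in thoracic horns. Of its 18 genes 1 was called, a share near the 4.81% of all genes. This was Hemolectin (Hml, OTAU000461), a clotting protein of insect blood cells, with 34.8, 96.6 and 361 CPM in head horns and 99.8, 1005 and 8062 CPM in thoracic horns, and the tissues overlapped (log2 fold change -4.32 ± 0.668 SE, adjusted p = 0.000157). Hml made up much of the highest thoracic sums, 8060 of 10320 CPM in S28 and 4450 of 6860 CPM in S27, but 777 of 5312 CPM in S35. The sum without Hml is not given here, so the range of the list is not read as a difference of its other genes. The median log2 fold change of the list was -0.20. The other defining blood cell genes tested were lower in head horns by their medians but were not called. Eater, a phagocytosis receptor, had medians of 2.49 and 5.14 CPM (adjusted p = 0.593) and Peroxidasin (Pxn) 57.03 and 105 CPM (adjusted p = 0.617). On scaffold 8 with Hml, with 1 gene model between them, lies the model named cg7402, which went the opposite way, with 7.71, 26.5 and 156 CPM in head horns and 1.17, 2.49 and 6.57 CPM in thoracic horns without overlap (log2 fold change 4.17 ± 0.468 SE, adjusted p = 1.83e-06). The gene named for human ARNTL (OTAU003371), the counterpart of the clock factor cycle, had 0.780, 4.69 and 25 CPM in head horns and 8.47, 113 and 286 CPM in thoracic horns (log2 fold change -3.93 ± 0.669 SE, adjusted p = 0.000479), while the 4 tested clock genes of the list were not called.

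Called genes lay beside each other on the scaffolds. Of the 466, 122 (26.2%) had an adjacent gene model called in the same direction, and of all 9691 tested genes 538 (5.55%) had an adjacent called model. The 67 adjacent pairs with the same direction stood against 1 pair with opposite directions (OtauTmpM007998 and krn), and in 57 of the 67 both models were on the same strand. The 122 models formed 55 runs, 11 of them of 3 or more models. The longest had 4 models and ended in hth (scaffold 250, 629880 to 751202, minus strand), with log2 fold changes from 2.13 to 2.22. The run that starts with dac (scaffold 300, 154812 to 272032, plus strand) had 3 models with log2 fold changes from 6.06 to 6.36, and the run around TBX20 (scaffold 420, 240799 to 290069, plus strand) 3 models from 5.00 to 5.49. On scaffold 563 apterous was followed by 2 models, all on the minus strand, with log2 fold changes from -1.50 to -1.26. The 466 are therefore gene models, and how many of the runs are split models of 1 gene was not tested. Of the genes tested, 63.5% carried the name of a gene of another species, against 50.4% of those higher in head horns and 57.4% of those higher in thoracic horns.

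The sexes were then taken apart. In females 96 of 9181 genes (1.05%) differed between head and thoracic horns, 62 higher in head horns and 34 higher in thoracic horns. In males 193 of 9056 genes (2.13%) differed, 108 and 85, while DESeq2 called 238 and 487. The fit with pairs called 231 genes in females (120 and 111) and 648 in males (332 and 316). The 2 sexes share no library. Of the female calls 63 were also male calls in the same direction, 65.6% of the female list and 32.6% of the male list. All 94 female calls that were tested in males had the same direction there, and so had 175 of the 187 male calls tested in females. Over the 8928 genes tested in both sexes, the log2 fold changes correlated at 0.639. Of the 466 genes of the whole comparison, 412 were tested in both sexes, and all 412 had the same direction in each. The 466 were chosen on these same libraries, which favours a shared direction, so nothing further is read from it. The leading genes had close values, with log2 fold changes in females and males of 8.26 and 8.17 for Pax6, 8.41 and 8.13 for gsb, 6.42 and 6.27 for dac, -4.53 and -4.37 for Antp, and -2.47 and -2.62 for Dr. Leaving out 1 library at a time moved the male count to between 64 and 277, with 64 when thoracic horn library S32 was left out. Other male libraries whose loss took it to between 70 and 109 were S34 and S35 of thoracic horns and S55, S56, S57, S58, S59 and S60 of head horns.

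The test of the difference itself, tissue by sex, called no gene of 9691 in edgeR (447 genes had an unadjusted p under 0.05, 4.61%), and DESeq2 called 18 and the fit with pairs 2. All 18 had a larger head over thoracic difference in females than in males. They included tolkin (tok), a secreted metalloprotease, with a DESeq2 difference of 5.00 ± 1.03 log2 units (adjusted p = 0.00979), the apolipophorin gene Rfabg at 2.90 ± 0.649 (adjusted p = 0.0147) and nidogen (Ndg), a basement membrane protein, at 2.54 ± 0.623 (adjusted p = 0.0404). In edgeR the same 3 differences were 4.99, 2.90 and 2.53 with an adjusted p of 0.511 each. A difference between the sexes in the tissue contrast was thus not called by the main test and depended on the tool.

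Control animals gave the reference for the same tissue contrast. In their 24 horn libraries 980 of 9640 genes (10.2%) differed, 509 higher in head horns and 471 higher in thoracic horns, while the fit with pairs called 1991, and common biological variation was 0.387 in controls and 0.501 after dsxRNAi. No library is shared between the 2 comparisons. Of the 466 genes called after dsxRNAi, 457 were tested in controls, all 457 had the same direction there, and 355 were called in it, which is 76.2% of the knockdown list and 36.2% of the control list. Over these 457 genes the median absolute log2 fold change was 1.14 after dsxRNAi and 1.09 in controls. Over the 971 control calls that were tested after dsxRNAi it was 0.626 after dsxRNAi and 0.778 in controls. Each list was chosen on its own comparison, which favours the comparison it came from. Of the 66 genes without overlap after dsxRNAi, 53 were without overlap in controls as well. The share of all genes without overlap in controls was not computed, so this count has no background beside it. For the region markers the values were near each other, with log2 fold changes after dsxRNAi and in controls of 8.22 and 7.90 for Pax6, 7.22 and 7.65 for slp2, 2.18 and 2.09 for hth, -4.47 and -4.45 for Antp, -1.50 and -1.93 for ap, and -8.01 and -7.88 for cpr67b.

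**Figure D5:**
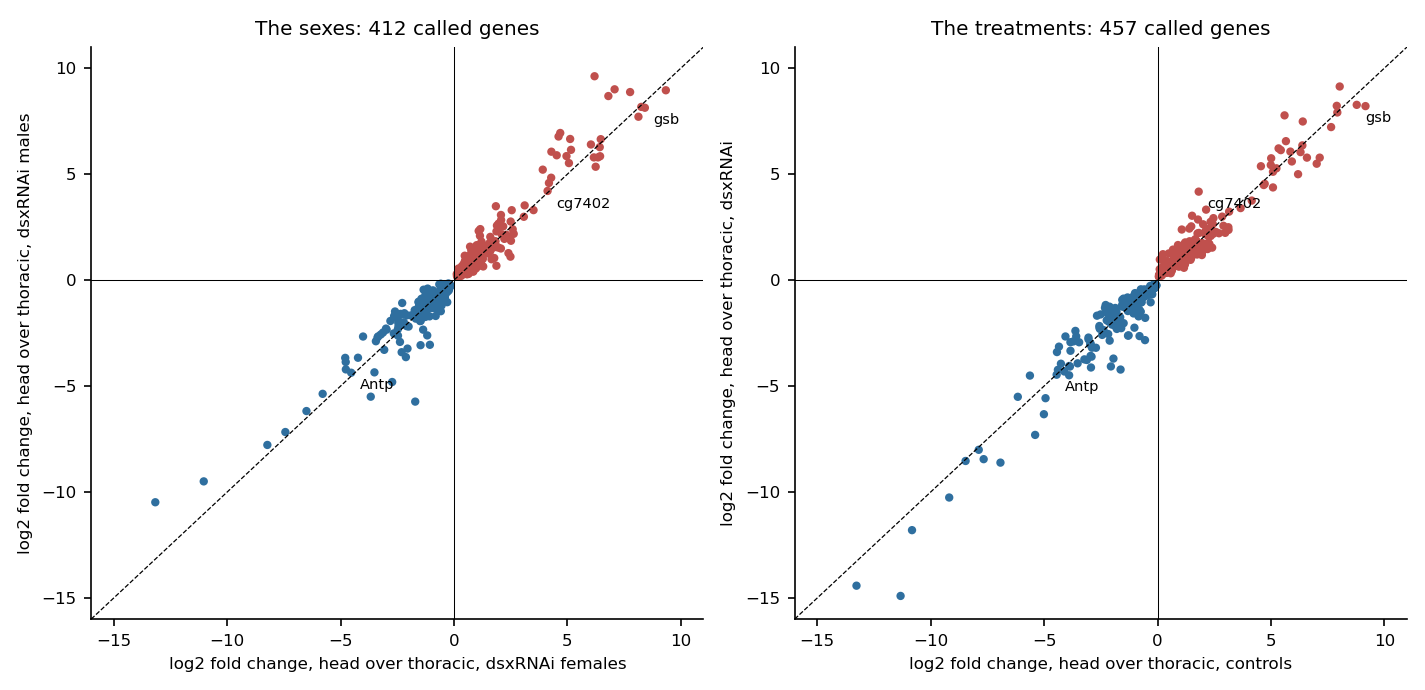
Log2 fold changes of head over thoracic horns for genes called in the 24 dsxRNAi libraries, in females against males (left, 412 genes) and in controls against dsxRNAi (right, 457 genes), with a dashed line of equal values. Red genes were higher in head horns and blue genes higher in thoracic horns, and all points lie in the quadrants of equal direction. In the left panel the choice of genes favours this, because they were called in the same libraries of both sexes.

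The test of the tissue by treatment difference called no gene of 10058 in edgeR over both sexes (182 with an unadjusted p under 0.05, 1.81%), and DESeq2 called 1. In males it called none of 9641 (546 unadjusted, 5.66%), and DESeq2 called 12. In females it called none of 9648 (285 unadjusted, 2.95%), and DESeq2 called 1. The gene of smallest p in the pooled and the female test was cg7402. On the scale of the 48 libraries, its lowest, median and highest level in female head horns was 10.5, 36.8 and 64.6 CPM after dsxRNAi and 6.48, 10.2 and 17.1 CPM in controls. In female thoracic horns it was 1.26, 2.25 and 2.91 CPM and 2.37, 7.95 and 24.01 CPM. It stood higher after dsxRNAi in the head horns and lower in the thoracic horns, by the medians. The tissue difference in females was larger by 3.95 ± 0.709 log2 units after dsxRNAi (edgeR, adjusted p = 0.128), a difference that DESeq2 called at 3.98 ± 0.689 (adjusted p = 0.000108). In male head horns cg7402 had 7.85, 26.9 and 159 CPM after dsxRNAi and 29.3, 61.04 and 105 CPM in controls.

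In males, muscle genes were among the genes of smallest p for the tissue by treatment difference. Mhc in male head horns had 9.83, 23.7 and 53.01 CPM after dsxRNAi and 61.7, 130 and 229 CPM in controls, as lowest, median and highest. These libraries did not overlap. In male thoracic horns it had 54.5, 186 and 810 CPM after dsxRNAi and 76.03, 122 and 168 CPM in controls, which did. The head over thoracic difference of Mhc was lower after dsxRNAi by -3.47 ± 0.807 log2 units in edgeR (adjusted p = 0.508) and by -3.50 ± 0.765 in DESeq2 (adjusted p = 0.0163). Muscle protein 20 (Mp20) gave -9.23 ± 2.13 in edgeR (adjusted p = 0.508) and -9.02 ± 1.83 in DESeq2 (adjusted p = 0.00446). Its median levels were 0.233 CPM in head horns and 6.36 CPM in thoracic horns of dsxRNAi males. Those thoracic horn libraries ran from 0.146 to 244 CPM. The highest were S34 at 244 CPM and S35 at 90 CPM, both among the libraries that stood apart. How far the Mp20 difference depends on these libraries is not shown here. Apterous was among these genes as well, with a difference of 1.03 ± 0.25 (adjusted p = 0.508). Its level in male head horns had a median of 2.24 CPM after dsxRNAi and 1.37 CPM in controls, without overlap. None of these differences passed the main test.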

How the data were processed

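RNA was sequenced from head and thoracic horns of Onthophagus taurus pupae as stranded single-end libraries. The authors deposited a table of raw read counts per gene model and a table of FPKM values, made with Trimmomatic 0.32, TopHat2 2.1.0 and HTSeq 0.6.1p1 against gene models v0.5.3, as the study's methods and the submitters' processing notes give them. Gene names are those of the deposited tables, where a prefix names the species a gene was named from, and 19 names are carried by more than 1 gene model.

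Counts of the 24 dsxRNAi horn libraries were filtered with filterByExpr, scaled by TMM and tested with edgeR 4.0.16 (quasi-likelihood, robust) in R 4.3.3, with sex as covariate and Benjamini-Hochberg adjustment over all genes tested (threshold 0.05). Fold changes are head over thoracic horns. The same test was fitted within each sex, in controls and for the interactions. The level of dsx was tested with permutations in SciPy 1.17.1. Alternatives were DESeq2 1.42.0, its size factors, no filter, no sex term, a fit of 48 libraries and each library left out. After the data were seen, fits without the 6 libraries of TMM factor under 0.75, with the first principal component as a covariate, and with a block that pairs head and thoracic horn libraries whose numbers lie 24 apart were added. The scripts were tested on simulated data. FPKM values were used only to describe levels. Intervals of read ratios are exact at 95% and cover counting error only.

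The labels do not say which libraries came from the same pupa, so the main tests used no pairing, and p-values measure the spread between libraries. The comparison and the gene lists were chosen with earlier results of these data known. Genes were named by rule. The rule took the 15 largest fold changes in each direction among called, non-overlapping genes with a name from another species (only 8 qualified on the thoracic side), the 3 largest of any name, and called list members. A gene that the rule takes is not reported here. In addition cg7402 as an interaction gene, dsx-c73A, ARNTL, cpr56f, Mhc, Mp20, tok, Rfabg, Ndg and the gene models OtauTmpA001107, OtauTmpM014792, OtauTmpM007998 and OtauTmpM002128 were picked after their values were seen.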

Additional observations from a re-analysis of the deposited data

Results flagged for a closer look

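Within each group of 6 libraries, 34 of the named genes were searched for a library far from the others, by the gap to its nearest neighbour over the range of the group. Of 136 such groups 13 had one, in 12 genes. The cut-off is met by chance in about 1 in 20 groups only where levels are normally distributed. Here it was applied to plain CPM, and in some thoracic horn groups most libraries held no read of the gene. That rate therefore does not apply, and nothing is read from the count of 13. Of the 13, 5 were in libraries of low TMM factor.

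In thoracic horns, several flags of head genes rested on 1 or 2 reads, which counting error alone can give. Gsb reached 0.238 CPM (2 reads) in the female library S26 (next 0.0827), and pax6 0.107 CPM (2 reads) in the male library S32 (next 0). Slp2 was at 0.148 CPM (1 read) in the male library S33 (next 0). More reads lay behind slp2 in the female library S25, at 1.85 CPM (12 reads, next 0.109). Tbx20 was at 2.40 CPM (29 reads) in the female library S28 (next 0.476). Pnr was at 90.1 CPM in the female library S25 (next 42.2).

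In head horns, the female library S53, of low TMM factor, was highest for mirr at 177 CPM (next 105), ara at 38.4 CPM (next 25.1) and dlp at 158 CPM (next 112), and lowest for ab at 16.3 CPM (next 31.5). Antp was at 1.00 CPM in the female library S52 (next 0.415), e at 135 CPM in the female library S54 (next 27.2) and OtauTmpM007998 at 40 CPM in the male library S58 (next 11.5). The cause of these values was not tested.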

How the results depend on the processing

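The count of 466 genes became 783 with DESeq2 (407 higher in head horns, 376 in thoracic horns), 1147 with the first principal component as a covariate and 828 in the fit of 48 libraries, and ran from 372 to 502 when single libraries were left out. In females, 96 became 320 with DESeq2 and 240 with the component, and 75 to 115 without single libraries. In males, 193 became 725 with DESeq2 (238 higher in head horns and 487 in thoracic horns, against 108 and 85) and 805 with the component (403 and 402), and 64 to 277 without single libraries. DESeq2 called 18 genes for tissue by sex, 1 for tissue by treatment, 12 in males and 1 in females, where edgeR called 0 each, also without any single library in the first 2. The dsx difference ran from 2.93 to 5.77 CPM without single libraries. The cause of these changes was not tested. Of 53 called genes named by rule, 45 kept their call under all 32 alternatives and none reversed. The labels do not tie head and thoracic libraries to a pupa, and the groups share no library number. Yet for numbers 24 apart the deviations from the group means correlated at 0.363 to 0.8 in the 12 dsxRNAi pairs, and in 11 of them the thoracic library at that offset was the best match within the sex. This is a hint from the data, not the design. The block on these pairs gave 1588 genes after dsxRNAi, 231 in females, 648 in males, 2 for tissue by sex and 1991 in controls (against 980). Under it tup, sob and 1 model named crc were called as well, and e was not. Genes under the filter, such as Ubx and Arr2, were too shallow to test.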
